A study of Homo sapiens with 7 samples.

Results

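The regions described here are 1 kb stretches of the genome that every wild-type library held at a low level and that the TET knockout stem cell library held mostly methylated. They were chosen by measured levels. Each stretch, called a bin, had 5 or more CpGs with 10 or more reads in all 7 libraries, and its level is the share of methylated reads among methylated plus unmethylated reads, summed over its CpGs and both strands. A bin was kept when this level was under 20% in all 4 wild-type libraries and at 60% or more in knockout stem cells. Of 85087 eligible bins, 1414 met this, and they are called fully gained below. Of the 28738 bins under 20% in all 4 wild-type libraries they make up 4.92%. The other unmethylated bins serve as comparison: 2240 stood at 20% to 60% in knockout stem cells (partly gained) and 25084 stayed under 20% there (unmethylated). Since the choice used 5 of the libraries, the levels in those are given as a description and not tested. The knockout libraries of the later stages had no part in it.

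The libraries are enhanced reduced representation bisulfite sequencing, which samples CpG-rich fragments of the genome. Bisulfite turns unmethylated cytosine into a base read as T, while methylated cytosine is read as C. All cells derived from HUES8, a human embryonic stem cell line in established use. The knockout cells (TKO) lacked TET1, TET2 and TET3, and how many clones they came from is not stated in the labels. TKO cells were taken as stem cells (SC, day 0), at the cardiac mesoderm stage (CME, day 3) and at the cardiac progenitor stage (CP, day 8). Wild-type cells (WT) were taken at the same 3 stages and as beating cardiomyocytes (CM). Both genotypes went through a monolayer protocol in which Wnt signalling was first switched on with CHIR99021 and later blocked with IWP2, and only the WT CM cells had also passed a lactate enrichment step. The files hold methylation only, so neither the knockout nor the cell stages were checked here. The series text puts WT CM at day 14 and its description at day 15, and its source label names the mesoderm stage, so the CM stage was taken from the sample title. Each group is 1 library, so no difference can be set against a spread between replicates.

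TET enzymes oxidise 5-methylcytosine, which is one route back to unmethylated cytosine, and they act against the DNA methyltransferases that place the mark. Most CpGs of the human genome are methylated, whereas CpG islands, the CpG-rich stretches at many gene starts and at developmental regulator genes, are usually free of the mark. TET1 is the member most strongly expressed in embryonic stem cells. A C in a bisulfite read does not tell 5-methylcytosine from 5-hydroxymethylcytosine, the first product of these enzymes.

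Summed coverage was between 149053464 and 213058905 reads over listed cytosines in the TKO libraries and between 120742115 and 158372334 in the WT libraries, and a fully gained bin held a median of 910.5 to 1462 reads per library. The reads are sums over CpGs, so 1 read may be counted at more than 1 CpG. Of the mitochondrial CpG reads, 0.139% to 0.387% were C in TKO libraries. The share was 1.46% for WT SC and 1.44% for WT CME, whose descriptions carry an added suffix, and 0.219% for WT CP and 0.216% for WT CM. When each level was corrected for this share, 1486 bins met the rule, and without the ceiling on WT CM 1431 did.

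Promoters inside these bins show what was gained at the level of sequence. The files hold hg19 positions, and the reference used here holds 300-base promoter sequences of RefSeq on GRCh38.p14 (from 250 bases before to 50 after each gene start), so a promoter was placed on the hg19 CpGs by the spacing of its own CpGs, where at least 8 of them could be matched at 1 place only. This placed 13626 promoters. Below are the 6 protein-coding promoters that lay wholly in a fully gained bin, met the same thresholds over their own CpGs and had the most measured CpGs. A last sequence, of PPP2R2C, is from directly beside a fully gained bin. Among protein-coding promoters there that were under 20% in all 4 wild-type libraries and in knockout stem cells, it had the most measured CpGs. It was also under 20% at both later knockout stages. Capitals mark the CpGs measured in all 7 libraries, and each sequence reads 5′ to 3′ along its gene.
NKX1-1: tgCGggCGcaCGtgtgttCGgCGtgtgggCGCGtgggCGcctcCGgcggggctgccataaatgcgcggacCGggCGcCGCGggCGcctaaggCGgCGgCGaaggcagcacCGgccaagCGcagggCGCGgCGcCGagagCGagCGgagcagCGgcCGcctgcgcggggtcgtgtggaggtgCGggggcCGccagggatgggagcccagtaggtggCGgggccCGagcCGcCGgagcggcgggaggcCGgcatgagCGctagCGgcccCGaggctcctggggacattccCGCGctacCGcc
ADGRA1: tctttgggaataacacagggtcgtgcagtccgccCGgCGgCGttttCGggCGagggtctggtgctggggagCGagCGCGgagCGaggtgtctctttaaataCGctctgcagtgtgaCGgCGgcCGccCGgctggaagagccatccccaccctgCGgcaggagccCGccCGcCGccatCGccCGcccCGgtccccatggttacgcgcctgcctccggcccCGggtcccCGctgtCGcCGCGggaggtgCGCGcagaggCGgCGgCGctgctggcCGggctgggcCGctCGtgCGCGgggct
PNCK: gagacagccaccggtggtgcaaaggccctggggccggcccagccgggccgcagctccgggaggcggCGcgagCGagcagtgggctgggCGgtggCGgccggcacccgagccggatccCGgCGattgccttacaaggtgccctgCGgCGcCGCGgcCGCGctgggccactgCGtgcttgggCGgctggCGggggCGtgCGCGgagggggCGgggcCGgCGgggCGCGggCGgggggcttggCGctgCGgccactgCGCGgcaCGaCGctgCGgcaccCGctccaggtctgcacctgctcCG
RHBDL1: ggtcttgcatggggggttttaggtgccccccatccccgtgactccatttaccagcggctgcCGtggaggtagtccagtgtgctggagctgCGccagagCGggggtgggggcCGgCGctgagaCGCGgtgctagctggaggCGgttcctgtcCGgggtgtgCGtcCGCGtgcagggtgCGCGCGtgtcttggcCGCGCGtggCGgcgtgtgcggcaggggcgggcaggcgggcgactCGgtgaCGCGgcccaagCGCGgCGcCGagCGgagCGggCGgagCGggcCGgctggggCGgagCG
M1AP: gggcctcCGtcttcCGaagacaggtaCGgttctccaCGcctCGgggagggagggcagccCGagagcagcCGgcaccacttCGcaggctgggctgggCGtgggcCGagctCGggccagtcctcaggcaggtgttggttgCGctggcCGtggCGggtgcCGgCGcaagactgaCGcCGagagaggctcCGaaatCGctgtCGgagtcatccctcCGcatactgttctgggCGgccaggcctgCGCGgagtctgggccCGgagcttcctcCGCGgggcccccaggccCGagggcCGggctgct
CHAD: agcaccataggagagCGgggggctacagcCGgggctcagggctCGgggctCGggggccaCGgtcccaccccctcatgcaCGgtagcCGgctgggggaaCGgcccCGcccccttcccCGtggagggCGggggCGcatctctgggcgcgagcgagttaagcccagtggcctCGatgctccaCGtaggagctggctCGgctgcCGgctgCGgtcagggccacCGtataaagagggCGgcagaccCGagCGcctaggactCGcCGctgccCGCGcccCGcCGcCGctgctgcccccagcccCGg
PPP2R2C: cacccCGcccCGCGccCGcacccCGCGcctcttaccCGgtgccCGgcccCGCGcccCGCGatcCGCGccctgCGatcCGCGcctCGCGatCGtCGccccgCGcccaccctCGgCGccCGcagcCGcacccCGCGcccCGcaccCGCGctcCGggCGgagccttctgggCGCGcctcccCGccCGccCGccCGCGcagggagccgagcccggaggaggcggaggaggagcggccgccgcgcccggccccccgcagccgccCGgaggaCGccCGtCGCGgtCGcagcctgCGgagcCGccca

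NKX1-1, a homeobox gene, has its promoter at chr4:1406393-1406692 of GRCh38.p14 on the minus strand, placed at 1400181 to 1400480 of chromosome 4 in hg19. Its 40 measured CpGs stood at 91.4%, 91.8% and 95.8% in TKO (SC, CME, CP), and at 12.1%, 13.1%, 8.15% and 7.61% in WT (SC, CME, CP, CM). No CpG of this promoter was under 76.9% in TKO SC, and none was above 34.7% in WT SC. The ADGRA1 promoter (an adhesion G protein-coupled receptor, chr10:133087674-133087973, plus strand, placed at 134901178 to 134901477 of chromosome 10) stood at 82.7%, 84.1% and 90.8% in the TKO stages and at 5.53%, 5.96%, 2.999% and 2.67% in the WT stages. That of PNCK (a calcium/calmodulin-dependent protein kinase, chrX:153673764-153674063, minus strand, placed at 152939219 to 152939518 of chromosome X) stood at 81.5%, 83.3% and 95.4% in TKO and at 3.24%, 6.69%, 0.510% and 0.965% in WT.

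The RHBDL1 promoter (a rhomboid protease, chr16:675421-675720, plus strand, placed at 725421 to 725720 of chromosome 16) stood at 87.2%, 87.3% and 92.9% in TKO (SC, CME, CP) and at 6.00%, 10.9%, 1.497% and 3.22% in WT (SC, CME, CP, CM). That of M1AP (a gene of male meiosis, chr2:74647988-74648287, minus strand, placed at 74875115 to 74875414 of chromosome 2) stood at 73.5%, 77.5% and 93.6% in TKO and at 7.33%, 14.3%, 3.68% and 7.23% in WT, and all 30 CpGs of its sequence were measured. The CHAD promoter (chondroadherin, a cartilage matrix protein, chr17:50468831-50469130, minus strand, placed at 48546192 to 48546491 of chromosome 17) stood at 88.1%, 93.0% and 94.4% in TKO and at 8.20%, 12.3%, 2.59% and 5.27% in WT. At these 6 promoters each TKO stage lay above every WT stage, which the choice fixes for TKO SC only.

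The promoter of PPP2R2C, a regulatory subunit of protein phosphatase 2A, lies at chr4:6563750-6564049 on the minus strand, placed at 6565477 to 6565776 of chromosome 4, and is denser than the others, with 59 CpGs in its sequence. Its 48 measured CpGs stood at 4.80%, 4.64% and 2.81% in TKO (SC, CME, CP) and at 3.26%, 2.08%, 1.18% and 1.18% in WT (SC, CME, CP, CM). In the bin directly beside its start bin (chromosome 4, 6564001 to 6565000), 17 CpGs stood at 74.0%, 69.8% and 77.5% in TKO and at 9.66%, 9.98%, 2.00% and 1.89% in WT. A gained stretch and one without the mark thus lay next to each other in the same cells.

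Over all 1414 fully gained bins the median level was 82.1% in stem cells, 84.5% at CME and 89.3% at CP of the TKO line, while the 4 WT stages (SC, CME, CP, CM) had medians of 7.78%, 10.2%, 3.97% and 4.59%. The quartiles of the bins were 72.8% and 87.6% at the TKO SC stage, 74.1% and 89.7% at TKO CME, and 81.8% and 92.3% at TKO CP. The values in TKO SC and in WT were fixed within limits by the choice. Both quartiles were slightly higher at TKO CME than at TKO SC, and at TKO CP the lower quartile had moved further than the upper one. The partly gained bins had medians of 32.1%, 32.8% and 37.9% in TKO (SC, CME, CP), and the unmethylated bins had medians of 0.839%, 0.918% and 0.862%. In WT SC the fully and partly gained bins had similar medians of 7.78% and 7.52%, and the unmethylated bins stood at 1.69%. In WT CP the 3 classes stood at 3.97%, 3.41% and 0.238%. The gained bins thus already carried a little more methylation in WT libraries, within a ceiling that all 3 classes share.

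**Figure D1:**
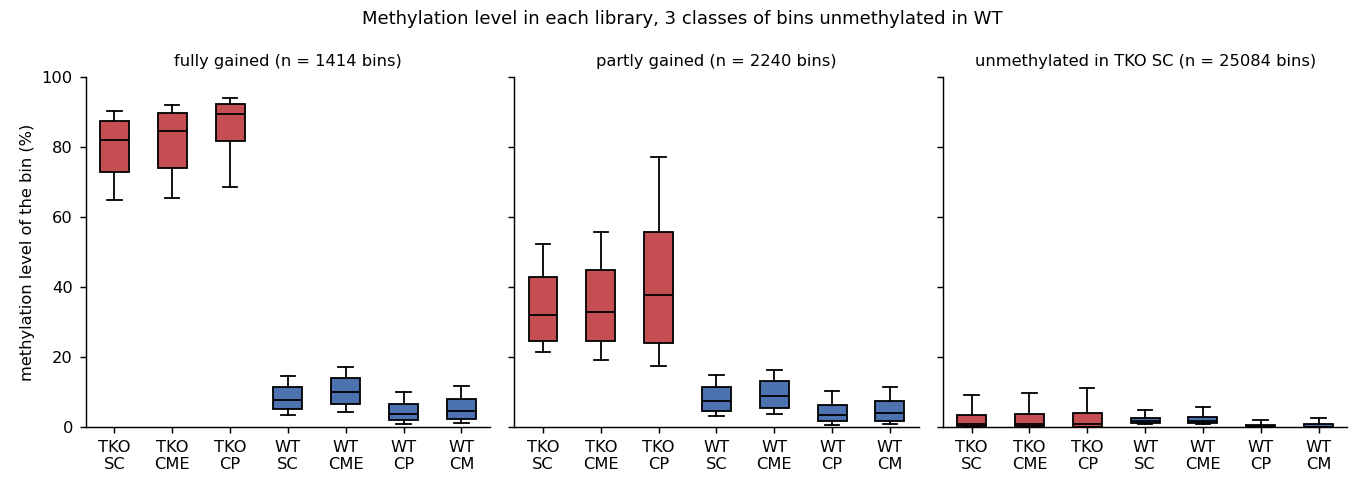
Methylation level of the bins (y axis, %) in each TKO and WT library (x axis), for fully gained, partly gained and unmethylated bins. Boxes show the quartiles and the median over bins, and whiskers the 10th and 90th percentiles. The fully gained bins have medians of 82.1% to 89.3% in TKO and 3.97% to 10.2% in WT.

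The gain reached nearly every CpG of these bins. Of their 28929 measured CpGs, those at 60% or more made up 90.3% in stem cells, 91.1% at CME and 93.3% at CP of the TKO line, and few were under 20% (0.982%, 0.899% and 0.989%). In WT SC 1.01% of the same CpGs were at 60% or more and 89.0% were under 20%. Every measured CpG was at 60% or more in 696 of the 1414 bins at TKO SC, 736 at TKO CME and 887 at TKO CP. A CpG under 20% remained in 132, 119 and 123 bins at these stages. The spread between CpGs of a bin was modest, with a median SD of 9.29 points at TKO SC, 9.29 at TKO CME and 7.50 at TKO CP. The level of a fully gained bin therefore mostly came from CpGs that were each high, and seldom from a mixture of high and unmethylated ones.

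The levels held through the later TKO stages, which the choice did not use. In TKO CME 1351 of the 1414 bins (95.5%, exact 95% binomial interval 94.3% to 96.6%) were at 60% or more, and in TKO CP 1341 (94.8%, interval 93.6% to 95.9%) were. Both stages stood at 60% or more in 1306 bins and neither did in 28. No fully gained bin returned to under 20%: the lowest levels were 46.6% at the CME stage and 20.4% at the CP stage of TKO. The number of bins at 90% or more was 325 at TKO CME and 632 at TKO CP. The upper quartile over all 85087 eligible bins also rose, from 89.1% to 92.3%, beside 89.7% to 92.3% in the fully gained bins. The filling of the top of the range was thus not particular to them. Of the partly gained bins, 117 were at 60% or more in TKO CME and 480 (21.4%) in TKO CP. These intervals count bins as independent, although all come from the same library and neighbours share sequence.

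Between the mesoderm and progenitor stages of TKO cells most fully gained bins moved little. TKO CP minus TKO CME had a median of 2.68 points over the fully gained bins, with quartiles of -0.204 and 7.19, and it was positive in 1034 bins and negative in 380. Over all 85087 bins the median difference was 1.497 points, so the median over all bins was also above 0 between these libraries. A two-sided Fisher's exact test on the reads of each bin, adjusted by Benjamini-Hochberg over all bins, called a bin at an adjusted p under 0.01 and a difference of 25 points or more. By this rule 35 of the 1414 bins (2.48%) were higher in TKO CP, where 0.772% of all bins were, and 12 (0.849%) were lower, where 0.0599% of all bins were. With the adjusted p as the sole criterion, 548 (38.8%) were higher, where 23.6% of all bins were, and 107 (7.57%) lower, where 4.97% of all bins were. The partly gained bins had 291 higher (13.0%) and 15 lower, and the unmethylated bins had 180 higher (0.718%). A level cannot pass 100% or go below 0%, so a bin above 75% in TKO CME cannot be called higher and one under 25% cannot be called lower, and the shares over all bins include many such bins. Among bins at 75% or less in TKO CME, 35 of 378 fully gained bins (9.26%) and 657 of all 33139 (1.98%) were higher in TKO CP. These shares start from unlike levels, since the 33139 include all 25084 unmethylated bins, with a median of 0.918% in TKO CME. Of the partly gained bins, with a median of 32.8% in TKO CME, 13.0% were higher. The test compares 1 library with 1 other, not the stages, and covers counting error only, so its p-values can be too small.

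The room for a called rise lay mostly at the lower end of the class. Of the 279 bins at 60% to 70% in TKO SC, 31 were called higher in TKO CP and 3 lower, and their median levels were 64.9%, 66.7% and 75.3% in TKO (SC, CME, CP). Of these 279, 251 were at 75% or less in TKO CME and could have been called higher. The 325 bins at 70% to 80% held 4 higher and 8 lower, with 119 at 75% or less in TKO CME. The 651 bins at 80% to 90% had medians of 85.9%, 87.8% and 90.7% and held 1 bin called lower, and with 8 of them at 75% or less in TKO CME almost none could be called higher. None of the 159 bins at 90% or more in TKO SC had room for such a rise, none was called lower, and they stood at medians of 91.5%, 91.6% and 92.9%. In WT SC these 4 levels did not set the bins apart, with medians between 7.12% and 8.57%.

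**Figure D2:**
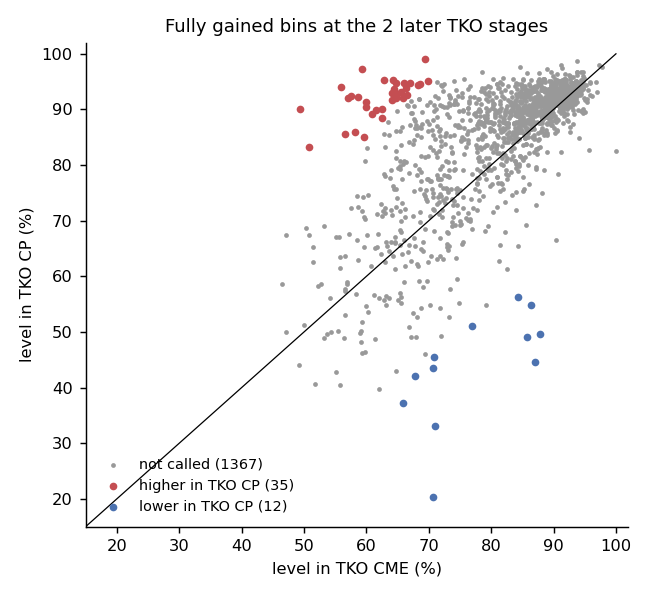
Level in TKO CP (y axis, %) against TKO CME (x axis, %), 1 point per fully gained bin, with the line of equal levels. The 35 bins called higher in TKO CP lie above it near 60% in TKO CME, and the 12 called lower lie below it.

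The 6 largest rises began at 49.3% to 59.3% in TKO CME, each below the level of the same bin in TKO SC (60.4% to 74.8%). They were ranked by TKO CP minus TKO CME, so a low level in TKO CME favours a high rank. The bin at 80529001 to 80530000 of chromosome 2, with 8 CpGs, stood at 65.9%, 49.3% and 90.2% in TKO (SC, CME, CP) and at 2.41%, 4.70%, 2.13% and 3.15% in WT (SC, CME, CP, CM). Its rise of 40.8 points had an adjusted p of 2.67e-69 (Fisher's exact test). Next came the bin at 73848001 of chromosome 10, where 21 CpGs stood at 60.4%, 56.0% and 94.1% in TKO and at 5.06%, 4.79%, 1.96% and 1.04% in WT. Both bins went from an intermediate level in TKO CME to over 90% in TKO CP while all WT stages stayed low. Of the other 4, the bin at 21649001 of chromosome 13 stood at 74.8%, 59.3% and 97.2% in TKO (SC, CME, CP). That at 92930001 of chromosome 5 stood at 69.6%, 57.1% and 92.0%. Those at 1582001 of chromosome 4 and 89952001 of chromosome 15 stood at 63.2%, 57.5% and 92.4%, and at 64.5%, 58.7% and 92.2%. A bin with far more CpGs also rose to over 90% in TKO CP, without a lower level in TKO CME than in TKO SC. At 31775001 to 31776000 of chromosome 15, 155963 bases from the nearest placed start (KLF13), 100 CpGs stood at 62.1%, 64.3% and 95.2% in TKO. In WT they stood at 3.53%, 4.53%, 1.95% and 2.38%.

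The falls were fewer, and 8 of the 12 were in bins at 70% to 80% in TKO SC. The bin at 201979001 to 201980000 of chromosome 1, with 8 CpGs, stood at 75.3%, 70.7% and 20.4% in TKO (SC, CME, CP), a difference of -50.3 points (adjusted p = 7.14e-92, Fisher's exact test). Its WT levels were 4.03%, 3.82%, 0% and 2.75% at SC, CME, CP and CM. The 0% in WT CP was 0 of 495 reads, which allows up to 0.606% (3 reads). The TKO CP level was the lowest of any fully gained bin and was still above those in WT. At 25935001 of chromosome 7, 11 CpGs stood at 88.7%, 87.0% and 44.6% in TKO and at 4.47%, 4.58%, 0.898% and 1.07% in WT. At 105499001 of chromosome 14, 21 CpGs stood at 79.1%, 87.8% and 49.7% in TKO and at 11.5%, 16.8%, 7.51% and 10.1% in WT. Both were left at intermediate levels in TKO CP, after high ones in TKO SC and TKO CME. Near OXTR, the oxytocin receptor gene (bin at 8809001 of chromosome 3, 918 bases from the placed start), 18 CpGs stood at 78.8%, 85.8% and 49.1% in TKO and at 3.65%, 9.86%, 1.20% and 2.62% in WT. The bin at 46957001 of chromosome 1, 1493 bases from the start of the homeobox gene DMBX1, stood at 66.7%, 71.0% and 33.2% in TKO and at 5.73%, 4.79%, 4.83% and 3.11% in WT. The last of the 6, at 31536001 of chromosome 22, stood at 72.1%, 86.4% and 54.9% in TKO. None of these bins reached the WT level in TKO CP.

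At the ends of the range in TKO CP stood bins with few CpGs. The highest was at 86548001 to 86549000 of chromosome 16, where 5 CpGs stood at 73.3%, 69.5% and 99% in TKO (SC, CME, CP) and at 15.4%, 12.4%, 2.58% and 5.03% in WT (SC, CME, CP, CM), and its rise was called (Fisher's exact test, adjusted p = 5.02e-11). Another 5 bins, on chromosomes 7, 2, 1, 7 and 2, stood between 97.5% and 98.7% in TKO CP and were not called. Apart from the falls given above, the lowest levels in TKO CP were 37.2% at 129427001 of chromosome 9, a called fall of 28.7 points from 65.9% in TKO CME, and 39.8% at 105782001 of chromosome 14, which was not called. The 6 lowest bins had 5 to 8 CpGs each.

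Fully gained bins held fewer CpGs than bins that stayed unmethylated. The median number of measured CpGs was 16 (quartiles 9 and 27, highest 119) in fully gained bins, 16 in partly gained bins and 27 in unmethylated bins, and 9 over all eligible bins. Among bins under 20% in all WT libraries, those with 5 to 9 CpGs were fully gained in 8.55% of cases (387 bins), those with 10 to 19 in 6.93% (474), those with 20 to 39 in 4.42% (402), those with 40 to 59 in 2.21% (109) and those with 60 or more in 1.26% (42). The partly gained share fell along the same classes, at 13.9%, 10.3%, 6.75%, 4.27% and 2.51%, so the fully gained share of all gained bins stayed between 33.3% and 40.3%. The split between fully and partly gained thus differed less between the classes than the share gained at all. Among the fully gained bins those with more CpGs stood higher: the median in TKO SC was 78.3% with 5 to 9 CpGs and 88.0% with 60 or more, and in TKO CP it was 86.2% and 92.2%.

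Gain was least common at placed gene starts. On the chromosomes with placed promoter starts (all but chromosome 8 among those with members), 148 of 1365 fully gained bins (10.8%) held such a start, against 12.6% of partly gained and 38.1% of unmethylated bins. A start lay in the bin or within 1 kb of 286 (21.0%) fully gained bins, 32.0% of partly gained bins and 58.9% of unmethylated bins. Among bins low in WT, those that held a start were fully gained in 1.54% of cases, those up to 1 kb away in 2.47%, those 1 to 5 kb away in 9.84%, those 5 to 20 kb away in 9.75% and those farther away in 8.10%. Bins at a start hold more CpGs, but within each class of CpG number the share was also lowest at a start and highest beyond 5 kb. With 5 to 9 CpGs, 2.36% of bins at a start, 5.84% of those up to 5000 bases away and 11.4% of those beyond were fully gained. With 40 or more CpGs the shares were 0.714%, 2.26% and 3.63%. Only promoters with at least 8 matched CpGs could be placed, so a bin far from a placed start may still lie at an unplaced one.

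**Figure D3:**
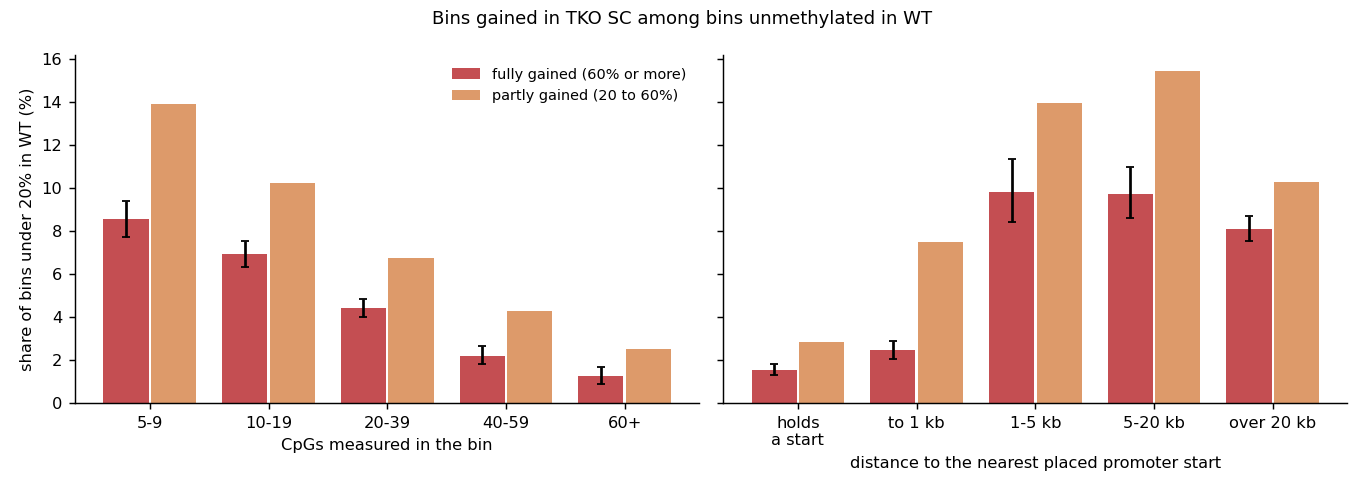
Share (y axis, %) of bins under 20% in all WT libraries that were fully or partly gained in TKO SC, by number of measured CpGs (left) and by distance to the nearest placed promoter start (right). Bars are shares of bins and lines exact 95% binomial intervals of the fully gained share, which goes from 8.55% with 5 to 9 CpGs to 1.26% with 60 or more, and is 1.54% in bins that hold a start.

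The promoters that were gained had a sequence composition slightly apart from the rest. A start in a fully gained bin belonged to 160 placed promoters of 149 genes. Their median GC content was 68.2%, against 70.3% for the 11260 promoters in unmethylated bins, and their ratio of observed to expected CpGs was 0.759 (quartiles 0.631 and 0.881), against 0.884 (0.787 and 0.974). The quartiles of the ratio overlap between the classes. Over its own CpGs 142 of the 160 windows (88.8%) met the same thresholds as the bins, with 1 that stayed under 20% in TKO SC. Directly beside fully gained bins, 66 promoters of 63 genes stayed under 20% in all 7 libraries, as PPP2R2C did, and their median was 0.684% in TKO SC and 1.38% in WT SC.

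Most fully gained bins had no other beside them among the measured bins. A neighbouring bin was measured on 1146 of their 2828 sides, and it was fully gained as well in 39.6% of these, partly gained in 11.1%, unmethylated in 18.9% and not low in all WT libraries in 30.4%. Of all eligible bins, low in WT or not, 1414 of 85087 were fully gained. In the 348 neighbours that were not low in WT, the median was 87.0% in TKO SC and 45.1% in WT SC. A raised WT level comes with this class. The median does not tell partly methylated bins from a mixture of low and high ones. In all, 414 of the 1414 bins (29.3%) had another directly beside them, against 14.2% of partly gained and 68.1% of unmethylated bins. Among bins with a measured neighbour the shares were 44.9%, 18.7% and 88.3%. These classes differ in size, with 1414, 2240 and 25084 of the 85087 bins, so the shares start from unlike backgrounds. They formed 1187 runs, of which 1000 were a single bin, 155 had 2 bins and 32 had 3 or more, with 4 as the longest. When up to 2 other bins could lie between, there were 1129 runs and the longest had 6 members. Of the 1414 bins, 923 had a measured neighbour on at least 1 side, and how far the others extend is unknown.

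The mean level over CpGs was followed outward from the bins. At the centre CpGs averaged 81.3% in TKO SC and 8.55% in WT SC. Since each bin was chosen for its own level, both this centre and a step at the edge of the bin come with the choice, and the step gives no width of the gain. At 1000 bases to the left and right of the centre they averaged 47.1% and 50.3% in TKO SC, and 13.2% and 12.9% in WT SC. At 5000 bases they stood at 38.2% and 44.2% in TKO SC and at 23.8% and 28.2% in WT SC. TKO SC thus stayed above WT SC out to 10000 bases, where it stood at 36.3% and 42.6% against 26.8% and 26.5% in WT SC. At 10000 bases from the partly gained bins it was also higher, at 37.9% and 42.6% against 31.2% and 35.4%. Summed over the reads of all eligible bins, TKO SC stood at 30.5% and WT SC at 27.0%. That sum over reads is unlike the means over CpGs given by distance. Whether a gain spreads from the bins was not tested. Around the partly gained bins the TKO SC mean at 1000 bases was 19.6% and 17.7%, below the mean at their centre (37.5%) and below that at 5000 bases (38.5% and 33.7%). CpGs near several bins count once for each.

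**Figure D4:**
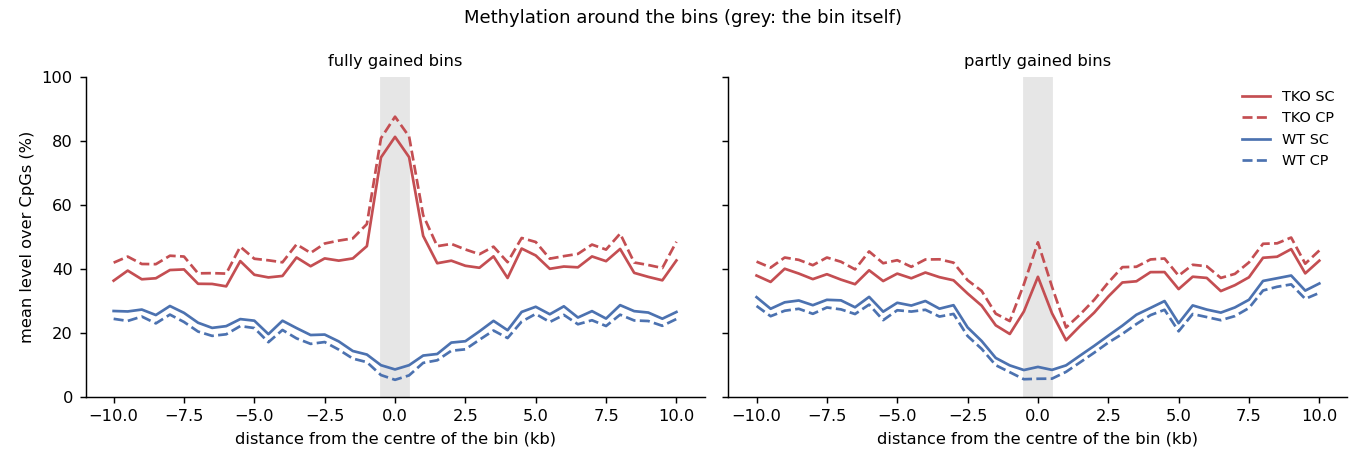
Mean level over measured CpGs (y axis, %) in 500-base steps by distance from the centre of fully gained (left) and partly gained bins (right), in TKO SC and TKO CP (red) and WT SC and WT CP (blue). In TKO SC the fully gained bins peak at 81.3% and reach 47.1% and 50.3% at 1000 bases on the left and right.

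Chromosomes 1 to 22 and X all held fully gained bins, in unequal shares. Chromosome 19 had the most (118, or 6.05% of its bins low in WT, exact 95% interval 5.03% to 7.20%). The shares of chromosome 5 (91 bins, 6.75%), chromosome 22 (44 bins, 6.64%) and chromosome 15 (62 bins, 6.40%) were the highest. The lowest share on an autosome was that of chromosome 18, with 9 bins and 1.76% (interval 0.810% to 3.32%), and X had 29 (3.44%). The intervals of most chromosomes overlap the share over all, 4.92%.

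The run with the most members lay on chromosome 5 from 172656001 to 172666000. Its 6 members with 136 CpGs stood at 78.3%, 79.0% and 90.8% in TKO (SC, CME, CP) and at 4.58%, 4.77%, 3.42% and 4.22% in WT (SC, CME, CP, CM). It lies between the placed starts of BNIP1 and STC2, and in the order of RefSeq genes NKX2-5, a homeobox gene of heart development, is the only protein-coding gene between these. Within the run the members differed in TKO SC, where they stood at 86.6%, 88.2%, 86.1%, 69.8%, 80% and 70.9%, and less so in TKO CP, at 86.6%, 94.6%, 90.4%, 86.6%, 95.4% and 91.0%. The nearest measured bin to the left of the run stood at 85.4% in TKO SC and 84.1% in WT SC, and so was methylated in both. The 2 members lowest in TKO SC had the largest differences between TKO CP and TKO SC.

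On chromosome 1 from 2984001 to 2991000, in a stretch between the placed starts of PRXL2B and ARHGEF16 that holds 6 protein-coding genes in RefSeq order, PRDM16 among them, 5 members with 251 CpGs stood at 91.2%, 92.0% and 92.7% in TKO and at 4.46%, 7.21%, 2.36% and 3.14% in WT. On chromosome 10 from 134599001 to 134603000, 4 adjacent members with 283 CpGs stood at 90.3%, 93.0% and 93.0% in TKO and at 6.00%, 6.32%, 4.09% and 3.77% in WT, between the placed starts of LRRC27 and CFAP46, where NKX6-2, a homeobox gene of the neural tube, is 1 of 3 genes. These were among the densest members, since the bins at 134599001 and 134600001 hold 93 and 83 CpGs and that at 2987001 of chromosome 1 holds 83. Their levels were already near the top of the range in TKO SC and moved little by TKO CP. Another of the 10 runs lay on chromosome 8 from 145103001 to 145107000, where 4 members with 194 CpGs stood at 88.4%, 91.2% and 92.9% in TKO and at 7.85%, 10.2%, 3.58% and 4.63% in WT. Several more runs had 4 members too, and those described are the ones among them with the most CpGs.

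Around TBX1, a T-box gene of the pharynx and the cardiac outflow tract, gained and ungained bins alternated. From 19741001 to 19755000 of chromosome 22, 13 bins were measured, of which 8 with 272 CpGs were fully gained. The bins to the left of the placed start, at 19742001 and 19743001, stood at 88.0% and 79.7% in TKO SC and at 3.10% and 4.89% in WT SC. The bin with the start itself stood at 20%, 30.2% and 14.9% in TKO (SC, CME, CP) and at 4.31%, 4.91%, 1.85% and 1.63% in WT (SC, CME, CP, CM). Past it, bins at 19746001 and 19747001 stood at 86.6% and 87.1% in TKO SC, the next bin, with 73 CpGs, stood at 1.13%, and the partly gained bin to its right at 34.1%. The 4 members from 19751001 to 19755000 stood at 88.9%, 90.3% and 91.6% in TKO and at 4.74%, 6.49%, 3.35% and 4.18% in WT. Among the densest bins of the stretch, those with 80 and 65 CpGs, at 19754001 and 19753001, were fully gained at 89.6% and 87.9% in TKO SC. The bin with 73 CpGs stayed low.

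The stretch around HMX1, a homeobox gene of eye and ear development, also held gained and ungained bins side by side. From 8859001 to 8897000 of chromosome 4, 13 of 21 measured bins were fully gained, with 364 CpGs. The bin with the placed start, at 8873001, held 111 CpGs and stood at 0.666%, 0.487% and 0.60% in TKO (SC, CME, CP) and at 1.29%, 1.05%, 0.179% and 0.353% in WT (SC, CME, CP, CM). The next bin to the right, 436 bases from the start, stood at 87.5%, 90.2% and 94.9% in TKO and at 7.63%, 6.69%, 5.27% and 6.78% in WT. Bins at 8862001 and 8863001 stayed at 10.6% and 13.9% in TKO SC between members at 84.9% and 89.3%. The members at 8859001 and 8860001 were lower in TKO SC (63.7% and 64.6%) than in TKO CP (94.8% and 90.8%), while the 4 members from 8893001 to 8897000 stood at 87.3%, 90.8% and 91.7% over the TKO stages. Thus the densest bin of this stretch, at the gene start, stayed low and the less dense bins nearest to it were fully gained.

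**Figure D5:**
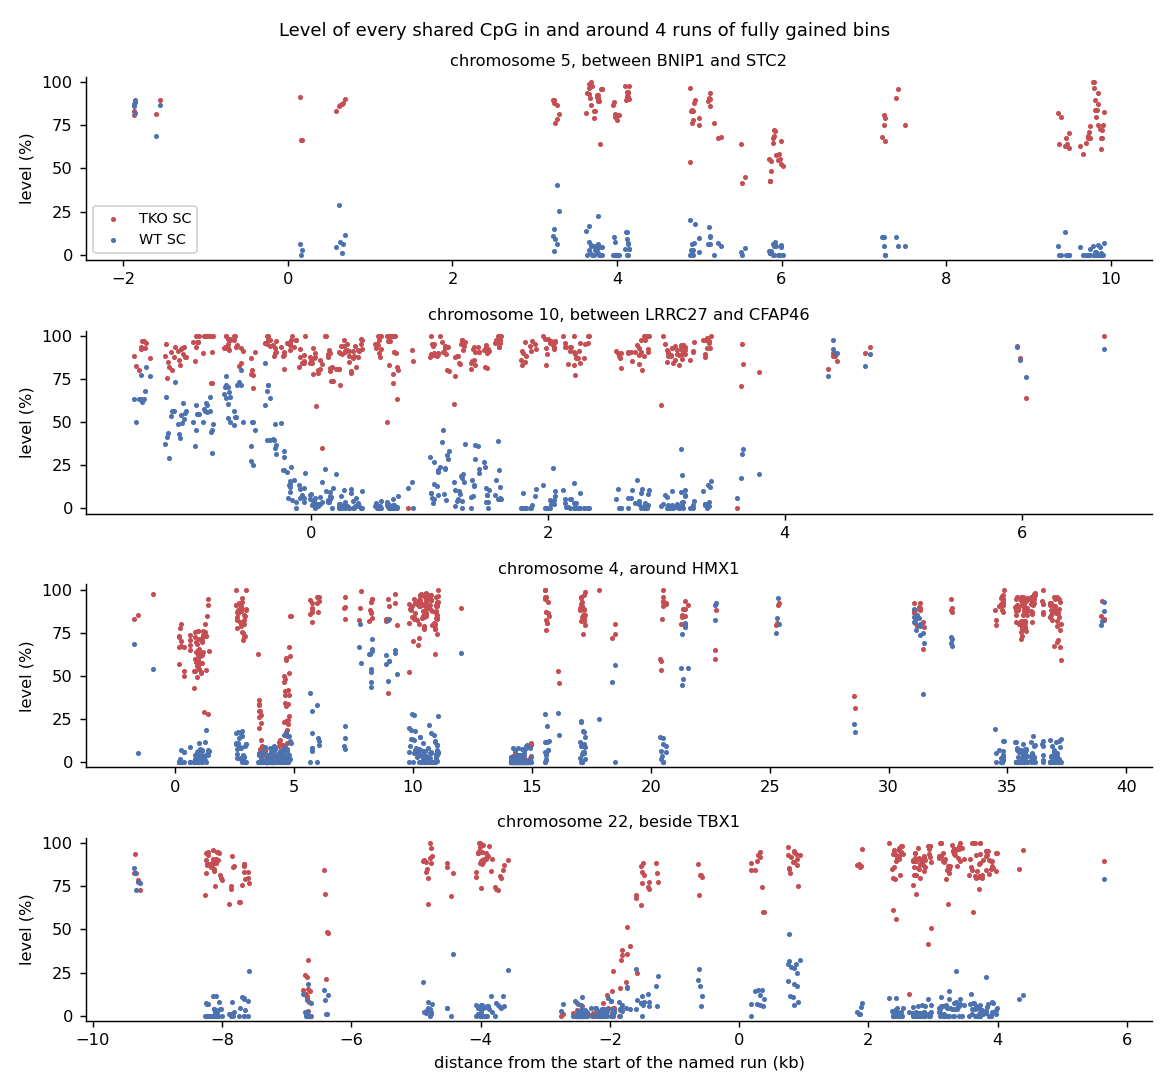
Level of each measured CpG (y axis, %) in TKO SC (red) and WT SC (blue) by distance from the start of a run of fully gained bins (x axis, kb), for runs on chromosomes 5, 10, 4 and 22. On chromosome 4 the HMX1 start bin stays at 0.666% in TKO SC between gained bins, and beside TBX1 the bin with 73 CpGs stays at 1.13%.

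Of the remaining long runs, LHX3 and LTK had their own starts inside. At LHX3, a LIM homeobox gene of the pituitary and motor neurons (chromosome 9, 139090001 to 139096000), 4 members with 172 CpGs stood at 88.0%, 87.6% and 87.7% in TKO and at 12.5%, 13.2%, 7.05% and 6.59% in WT, and its placed starts lie inside the run. At LTK, a receptor tyrosine kinase (chromosome 15, 41803001 to 41807000), 4 members with 132 CpGs stood at 83.9%, 87.4% and 92.9% in TKO and at 6.55%, 7.71%, 3.70% and 3.75% in WT. On chromosome 22 from 28191001 to 28196000, between TPST2 and PITPNB with MN1 as 1 of the 3 genes between, 4 members with 148 CpGs stood at 87.6%, 90.5% and 91.1% in TKO and at 4.13%, 6.73%, 4.00% and 8.27% in WT. In these 3 runs each TKO stage stood at 83.9% or more and each WT stage at 13.2% or less.

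Single bins with many CpGs were gained as well. The bin with the most, at 1400001 to 1401000 of chromosome 4, holds the NKX1-1 start and 119 CpGs, and stood at 90.8%, 91.8% and 94.3% in TKO (SC, CME, CP) and at 14.99%, 17.2%, 10.3% and 9.77% in WT (SC, CME, CP, CM). At 1960001 of chromosome 17, 93 CpGs stood at 88.9%, 90.6% and 91.1% in TKO and at 15.4%, 19.8%, 7.16% and 13.4% in WT. The bin at 19711001 of chromosome 22, which holds the start of GP1BB, a platelet glycoprotein gene, had 92 CpGs at 90.5%, 93.3% and 89.2% in TKO and at 5.48%, 6.62%, 1.14% and 1.22% in WT. These 3 bins were all above the median of the fully gained bins in TKO SC (82.1%). At 53420001 of chromosome 13, 87 CpGs stood at 89.4%, 92.8% and 94.8% in TKO and at 11.0%, 12.1%, 7.80% and 7.45% in WT. At 50738001 of chromosome 22, 82 CpGs stood at 80.6%, 87.0% and 92.2% in TKO and at 6.12%, 15.1%, 2.45% and 4.58% in WT. At 145557001 of chromosome 8, 85 CpGs stood at 79.2%, 78.0% and 75.4% in TKO and at 11.5%, 10.3%, 10.2% and 8.98% in WT, so this bin was below the medians of the class at each TKO stage. NKX1-1 and 4 others of these bins carried over 10% in WT SC or WT CME, the libraries with the higher mitochondrial C share. In libraries with the lower share, NKX1-1 and the chromosome 8 bin also passed 10% in WT CP, and the chromosome 17 bin did in WT CM. The bins at 53420001 and 50738001 did not. What these WT levels came from was not tested.

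Members were counted for 20 lists of developmental and control genes, in bins within 5000 bases of a placed start. Over all genes, 449 of 16859 such bins low in WT (2.66%) were fully gained. This share was 1.54% in bins that held a start and 9.84% in those 1 to 5 kb away. The lists were not matched to it for distance or CpG number, so 2.66% is no like baseline for them. The list of other heart regulators, with T-box, GATA and NKX genes listed apart, had 7 of 36 low bins fully gained. Of its 20 genes 7 were placed, and members lay near 2 only. These were IRX4, a homeobox gene of the ventricles, with 4 bins, and IRX1 with 3. T-box genes had 6 of 36, of which 4 lay near TBX1, 1 near TBX20 and 1 near TBXT, the brachyury gene of early mesoderm. HOX genes had 8 of 53, 4 of them near HOXD10 and 1 near both HOXC4 and HOXC5, and LIM homeobox genes 8 of 50 (4 near LHX3, 2 near ISL2, 1 each near LHX6 and LMX1B). The homeobox list with OTX1 and SIX2 had 4 of 18, 3 of them near OTX1, and the retinoic acid genes 6 of 35, with 4 near CYP26C1, an enzyme that degrades retinoic acid, 1 near ALDH1A2, which makes it, and 1 near RXRG, a receptor. PAX genes had 4 of 49. The lists were chosen with results of these data in view, and bins of a gene share their locus, so the shares are counts only.

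The other lists held fewer members. FOX genes had 2 of 69 low bins, NKX genes 1 of 45 (NKX1-1), GATA genes 1 of 31 (GATA2), WNT ligands 1 of 39 (WNT3A), Nodal and BMP signals 2 of 34 (BMP4 and CHRD) and pluripotency genes 1 of 11 (KLF4). No fully gained bin was found near the placed starts of the enzymes of DNA methylation (0 of 30), cardiac ion channels and calcium handling (0 of 22), neural bHLH factors (0 of 21), SOX factors (0 of 15), sarcomere genes (0 of 13), clustered protocadherins (0 of 5) and secreted WNT inhibitors (0 of 3). By a rough bound of 3 counts, a 0 allows up to 10% of the 30 bins of the first list. For the 5 bins of the protocadherins this bound is too coarse to use, so these zeros set no narrow limit. Genes whose start was not placed are missing. NKX2-5 is among them, so the long run on chromosome 5 is not counted here. Of the NKX genes 7 of 14 were placed, of SOX factors 4 of 18 and of sarcomere genes 5 of 18. Of the protocadherins 4 of 53 were, and of the secreted WNT inhibitors 2 of 14.

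The 4 bins near IRX4 stood at 81.1%, 81.8% and 86.2% in TKO (SC, CME, CP) and at 5.59%, 8.28%, 4.97% and 9.39% in WT (SC, CME, CP, CM), over 126 CpGs. Those near CYP26C1 stood at 78.3%, 81.0% and 93.3% in TKO and at 6.79%, 8.30%, 5.00% and 6.28% in WT. Those near OTX1, a homeobox gene of the forebrain, stood at 72.2%, 77.1% and 77.7% in TKO and at 5.48%, 6.38%, 6.26% and 8.34% in WT. CYP26C1 was among the loci that went on upward by TKO CP, while OTX1 did not pass 80%. The bin near KLF4, a pluripotency factor, stood at 77.2%, 80.1% and 90.2% in TKO and at 3.03%, 3.21%, 0.467% and 1.502% in WT. That near BMP4, a growth factor of mesoderm, stood at 74.2%, 73.3% and 52.7% in TKO and at 1.49%, 2.51%, 0.499% and 0.598% in WT, and so was lower at CP, though under 25 points from TKO CME. At TBX20, a cardiac T-box gene, the bin stood at 63.6%, 50.9% and 67.4% in TKO and at 5.10%, 2.77%, 4.39% and 6.18% in WT, on 6 CpGs.

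The thresholds cut through a continuous range of levels. Just inside 60% in TKO SC stood bins at 149333001 of chromosome 1 and 119313001 of chromosome 10 (60% each) and 80725001 of chromosome 10 (60.1%). Just outside stood bins at 119311001 of chromosome 10 (59.9%), 409001 of chromosome 19 (59.9%) and 19706001 of chromosome 22 (59.9%). The bins at 119311001 and 119313001 lie near EMX2, a homeobox gene of the forebrain and urogenital tract, on either side of the threshold, and stood at 91.2% and 89.2% in TKO CP. Just inside 20% in the highest WT library stood bins at 102172001 of chromosome 14 (19.96% in WT CME), 1857001 of chromosome 19 (19.9%) and 111840001 of chromosome 12 (19.9%), and just outside stood bins at 5585001 of chromosome 19, 35014001 of chromosome 15 and 127260001 of chromosome 7 (20% to 20.03% in their highest WT library).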

How the data were processed

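The deposited coverage counts and percentages of C and T per cytosine, 1 table per library, have positions on hg19 per the submitters' processing notes. Per the labels' protocols, alignment and methylation extraction were done at a core facility; neither an aligner nor a caller is named in the sources used here. The authors' tables list only cytosines with a coverage of 10 reads or more. From the deposited percent values and coverage, C and T reads were recovered as whole numbers and summed over both strands of each CpG. Of 2587280 CpGs seen in any library, 1734462 nuclear ones had 10 or more reads in all 7, and these were summed in 1 kb bins.

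The members and gene lists were chosen with earlier results of these data known. The bins named were the 10 runs with the most members (at most 2 other bins between; ties, of which there were many at 4 members, by CpG number), the 10 members with the most CpGs, the 6 largest called rises and falls between TKO CME and TKO CP, members with the highest and lowest TKO CP level (named where they fell in another group too), and the 3 bins on each side of a threshold. Genes were those nearest by placed start and up to 4 per list. A planned share of bins within 1 kb of gene starts needs an hg19 annotation, which was not used here; promoter sequences of RefSeq (GRCh38.p14, 35116 in the table, 21319 with 8 or more CpGs) were placed by CpG spacing instead, a choice made after the data were seen. A run of 5 CpGs found a candidate place, and 1 odd CpG was allowed with 12 or more matches. Of 13650 placed once, 24 were dropped because their distance to both neighbouring placed promoters differed from that on GRCh38.p14 by over 100000 bases, and 22 others matched more than 1 place. With the CpGs of a promoter read backwards, 81 were placed, a measure of chance matches.

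TKO CP and TKO CME were compared by Fisher's exact test (two-sided) with Benjamini-Hochberg adjustment over 85087 bins; on simulated reads with known differences the test was checked before use. Intervals are exact binomial at 95%, while limits for a count of 0 take 3 counts as a rough bound. Each group has 1 library, so tests and intervals cover counting error only. Reads copied by PCR were not told apart. The work used scipy 1.17.1 for the tests, statsmodels 0.14.6, pandas 2.3.3, numpy 2.4.6, matplotlib 3.10.9, numba 0.67.0 and Python 3.11.15.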

Additional observations from a re-analysis of the deposited data

How the results depend on the processing

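Of 69 alternative values, 51 kept within their limits and 18 moved. The excess of bins called higher over bins called lower (35 and 12) turned under 2 settings. Requiring under 10% in all 4 WT libraries left 624 bins, with 23 called higher in TKO CP and 25.5% in adjacent runs. Requiring 70% in TKO SC left 4 called higher and 9 lower, since it drops most bins with room to rise by 25 points, with 99.4% at 60% or more in TKO CME and 98.0% in TKO CP. With 10 or more CpGs per bin, 7 were called lower, 96.6% were at 60% or more in TKO CME, 25.4% lay in adjacent runs, the median CpG number was 21, and 23.6% lay within 1 kb of a placed start (an alternative chosen after seeing the data, as were all for placed starts). With 20 reads per CpG the median CpG number was 14. As a mean over CpGs, 96.0% were at 60% or more in TKO CP. At 40 points 1 bin was called higher and 2 lower; by adjusted p alone 548 and 107. With at most 2 other bins between, 35.3% lay in runs. The share near annotated hg19 gene starts was not computed under any setting, since no hg19 annotation was used here, and placed starts took their place. No paired analysis was possible because each group has 1 library, so no 2 groups share 2 replicate numbers. Without replicates no spread between cultures is known, and a level of a bin with few reads is less precise than one with many.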
